A study of Mus musculus with 9 samples.

Results

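Transcripts of 8 genes that carry the brain's response to corticosteroids, corticotropin-releasing hormone (CRH), oxytocin and vasopressin were followed in 9 RNA-seq libraries of mouse ventral hippocampus (labelled vHIP). The genes were chosen by symbol, for their role, with earlier results of these data known. Each symbol matched 1 of the 53465 rows of the table. They are the corticosteroid receptors Nr3c1 and Nr3c2, the peptide Crh with its receptors Crhr1 and Crhr2 and its binding protein Crhbp, the oxytocin receptor Oxtr and the vasopressin receptor Avpr1a. The libraries form 3 groups of 3. The first, CRS-WT, carries the marks CRS and wild type. The second is titled CRS-NKAα1 and is written CRS-NKAα1+/- in the design text, where +/- stands for a heterozygous genotype. The third, CRS-WT-DR5-12D, is wild type with DR5-12D. All 3 groups share the mark CRS, so no group without it was compared. Neither abbreviation is expanded in the labels, which also give no strain, age, sex, dose, time, or number of animals behind a library. Total RNA was taken from freshly isolated tissue, and the p-values measure the spread between libraries, which may in part be technical.

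Corticosterone, the main glucocorticoid of mice, reaches receptors of unlike affinity in hippocampal neurons. The mineralocorticoid receptor, encoded by Nr3c2, binds it tightly and is largely occupied at resting hormone levels, whereas the glucocorticoid receptor, encoded by Nr3c1, fills as hormone rises with stress or the daily peak. Both are nuclear receptors that act on transcription. CRH is best known as the hypothalamic signal that starts the hormonal stress response, and in the hippocampus it is made by a subset of GABAergic interneurons and acts on CRHR1 of nearby neurons. Oxytocin and vasopressin act on related receptors coupled to Gq, and the oxytocin receptor is known from interneurons and from pyramidal cells of the CA2 and CA3 fields.

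In the results 5 members separated the same libraries, Nr3c2, Crhr2 and Oxtr in a common direction and Crh and Crhr1 in the other, and promoter sequence is shown for the 4 of them that had a promoter in the reference used, which is all but Crh. RefSeq (GRCm38.p6) gave a promoter for 6 of the 8 members, and only the stretch that lies in no annotated exon is given, 5′ to 3′ on the strand of the gene. The Nr3c2 stretch is chr8:76902080-76902287 on the plus strand and lies inside the longer GENCODE gene, which starts at 76899442. The Crhr1 stretch is chr11:104132531-104132780 on the plus strand, the Crhr2 stretch chr6:55133017-55133266 on the minus strand, and the Oxtr stretch chr6:112489944-112490075 on the minus strand. Capitals mark the CCAAT box letters, the TATAAA letters of a TATA box and the GC box letters GGGCGG, on either strand.
Nr3c2: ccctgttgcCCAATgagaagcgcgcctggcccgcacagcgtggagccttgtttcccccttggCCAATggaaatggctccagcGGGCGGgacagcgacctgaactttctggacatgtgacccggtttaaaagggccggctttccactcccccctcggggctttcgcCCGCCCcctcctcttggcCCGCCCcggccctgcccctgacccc
Crhr1: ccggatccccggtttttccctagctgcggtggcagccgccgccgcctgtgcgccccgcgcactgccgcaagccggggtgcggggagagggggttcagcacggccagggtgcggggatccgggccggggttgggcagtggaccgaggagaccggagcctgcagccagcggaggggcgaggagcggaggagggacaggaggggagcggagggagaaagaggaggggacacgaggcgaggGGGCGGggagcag
Crhr2: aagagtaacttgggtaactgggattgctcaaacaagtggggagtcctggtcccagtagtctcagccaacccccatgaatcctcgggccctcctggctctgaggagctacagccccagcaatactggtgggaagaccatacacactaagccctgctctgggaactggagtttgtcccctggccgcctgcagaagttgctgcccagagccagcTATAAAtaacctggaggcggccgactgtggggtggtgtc
Oxtr: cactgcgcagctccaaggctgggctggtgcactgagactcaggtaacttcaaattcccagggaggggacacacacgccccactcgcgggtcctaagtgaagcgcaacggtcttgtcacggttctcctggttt

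The 250 bases before the start of these 6 members were searched on both strands for 7 sets of letters, and Crh and Nr3c1 were not searched. None of the 6 windows held the full glucocorticoid response element, searched as AGAACA followed after any 3 bases by its mirror letters, which 0.0091% of 32851 promoters held, nor TGTTCT on its own, held by 16.1%. None of the 6 held the cAMP response element TGACGTCA, held by 1.55%. The shorter TGACG was in the windows of Crhbp and Avpr1a and in 17.8% of promoters. The Nr3c2 window held GGGCGG 3 times and CCAAT 3 times, 1 of the latter past the stretch printed, and 32.7% and 33.9% of promoters held these letters. GGGCGG also occurred in the windows of Crhr1 and Oxtr, in Oxtr past the stretch printed. TATAAA lay 39 to 34 bases before the start of Crhr2 and also occurred in Avpr1a, and 12.4% of promoters held it. GC content was 74.8% in the Crhr1 window and 68.4% in that of Nr3c2, against a median of 52.4% over all promoters. A match is a run of letters and no evidence of binding.

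The libraries held 15117452 to 27323380 fragments, as implied by the deposited FPKM (fragment counts divided by gene length and by library depth). 3 libraries stood apart from the other 6: replicate 1 of CRS-WT-DR5-12D, with replicates 1 and 2 of CRS-NKAα1+/-. The summed level of 16 markers of dentate granule cells, the principal neurons of the dentate gyrus, was 56.3 to 65.1 FPKM in these 3 and 99.99 to 139.9 FPKM in the other 6, with 11 of 16 markers lower and 1 higher in all 3. The summed level of 12 markers of isocortex and amygdala was 149 to 178 FPKM in the 3 and 55.1 to 67.9 FPKM in the other 6, with 6 of 12 markers higher and 2 lower in all 3. Summed levels also separated the 3 from the 6 for markers of CA3 pyramidal cells (218 to 246 against 152 to 192 FPKM) and of neurons at large (979 to 1063 against 768 to 878 FPKM), which were higher, and for those of choroid plexus and ependyma (6.48 to 12.4 against 15.0 to 32.4 FPKM), of septum, thalamus and hypothalamus (9.54 to 12.3 against 15.4 to 18.8 FPKM) and of CA2, which were lower. By mean log2(FPKM + 1) the CA1 pyramidal cell markers were lower in the 3 (2.84 to 3.11 against 3.20 to 3.67), while their sums overlapped. Of the 8 CA1 markers 4 were lower and 2 higher in all 3. The CA3 mean overlapped (3.19 to 3.26 against 3.25 to 3.47), with 4 of 9 markers lower and 2 higher in all 3. No marker of the granule cell and isocortex lists was at 0 throughout. Prox1, a marker on the granule cell list, was 0.900 to 1.28 FPKM in the 3 and 7.51 to 11.6 FPKM in the others. C1ql2, also on that list, was 0.596 to 0.973 FPKM in the 3 and 23.6 to 40.1 FPKM in the others. Transcripts of these markers were thus reduced but present. In bulk tissue, fewer cells of a type and less RNA per cell cannot be told apart. These libraries are called the low-granule libraries below.

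Nr3c2 had the widest range of the corticosteroid receptors. Its level was 15.5, 17.0 and 14.6 FPKM in CRS-WT replicates 1 to 3, 3.87, 3.42 and 15.2 FPKM in the libraries labelled CRS-NKAα1+/-, and 3.97, 20.4 and 14.1 FPKM in CRS-WT-DR5-12D. The 3 low values belonged to the 3 low-granule libraries, and the other library labelled CRS-NKAα1+/- fell within the CRS-WT range. The highest library held 5.94 times the level of the lowest. The counts behind these values were 392 to 2749 fragments, so counting error is small beside the gap. The gene lies at chr8:76899442-77245012 on the plus strand (GRCm38, GENCODE), and 3.815% of its exon bases are shared with the antisense gene Gm10649, from which unstranded fragments could not be separated.

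Nr3c1 varied far less. Its level was 9.16, 8.85 and 8.86 FPKM in CRS-WT, 10.9, 9.07 and 7.14 FPKM in the libraries labelled CRS-NKAα1+/- and 12.3, 10.6 and 8.36 FPKM in CRS-WT-DR5-12D. The 3 groups overlapped, and the low-granule libraries, at 9.07 to 12.3 FPKM, overlapped the other 6, at 7.14 to 10.6 FPKM. The SD was 0.179 FPKM in CRS-WT, 1.86 FPKM in the libraries labelled CRS-NKAα1+/- and 1.97 FPKM in CRS-WT-DR5-12D (n = 3 each). The coefficient of variation over the 9 libraries was 16.2% for Nr3c1 and 53.7% for Nr3c2. Nr3c1 lies on chromosome 18.

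The balance of the 2 receptors was taken as the log2 ratio of Nr3c2 to Nr3c1 in each library, which the scaling of a library cannot alter. It was 0.76, 0.94 and 0.72 in CRS-WT, −1.49, −1.41 and 1.09 in the libraries labelled CRS-NKAα1+/-, and the CRS-WT-DR5-12D libraries had −1.63, 0.94 and 0.75. Nr3c2 therefore exceeded Nr3c1 in 6 of 9 libraries, and the 3 exceptions were the low-granule libraries. The mean ratio differed by −1.41 between the libraries labelled CRS-NKAα1+/- and CRS-WT (exact permutation p = 0.4, two-sided, n = 3 per group). The CRS-WT-DR5-12D mean less that of CRS-WT was −0.79 (exact p = 0.7, n = 3) and less that of the libraries labelled CRS-NKAα1+/- was 0.62 (exact p = 1, n = 3). The adjusted p was 1 in each of these 3 exact tests, a pair of groups of 3 cannot go below p = 0.1, and an exact permutation of the F statistic over 1680 arrangements gave p = 0.657. Without the low-granule libraries, which leaves 1 library labelled CRS-NKAα1+/-, the 3 differences were 0.28, 0.039 and −0.24. Each was of the opposite sign to its counterpart over all 9.

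**Figure D1:**
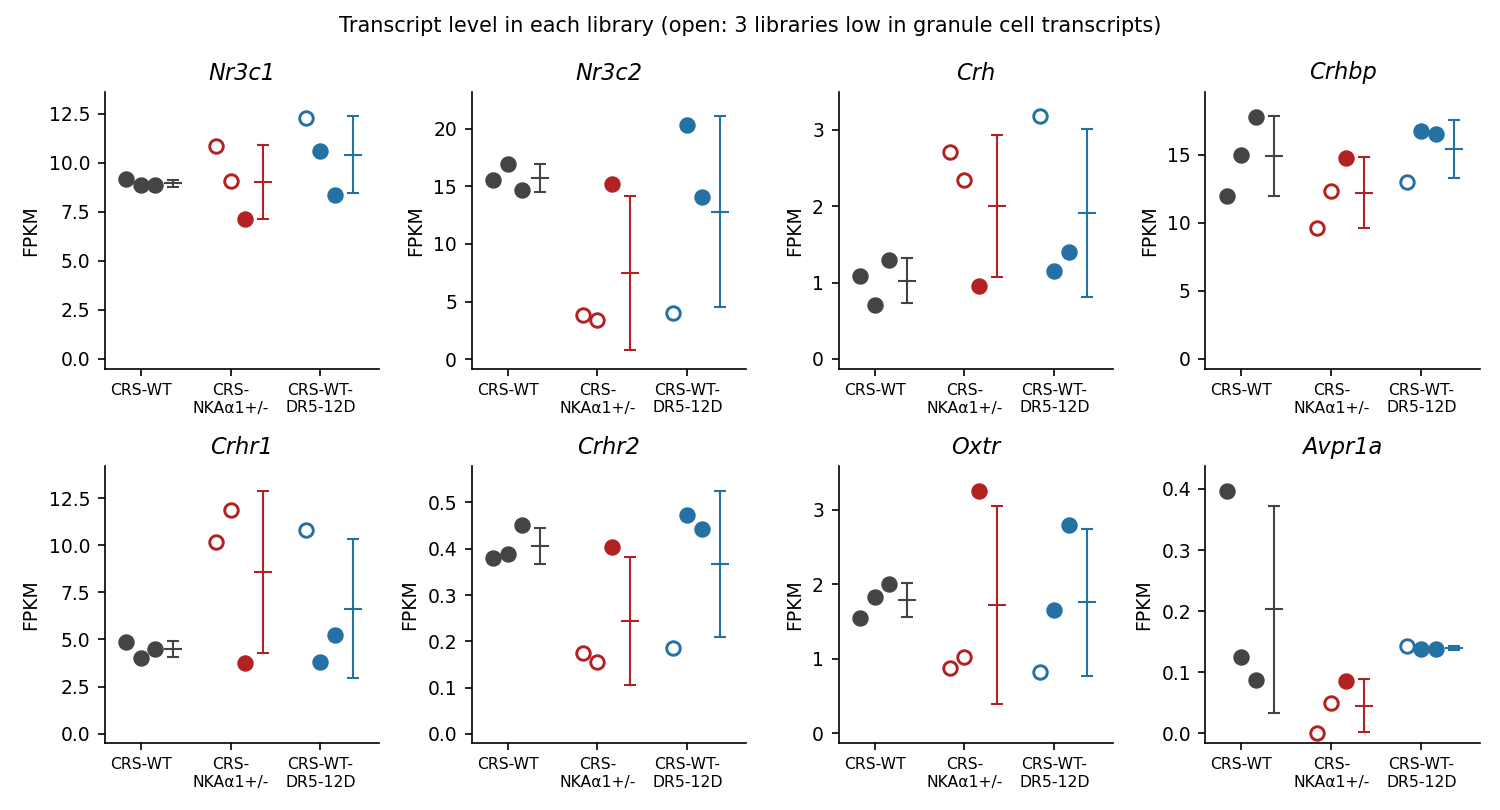
Level of each of the 8 genes in FPKM (vertical axes, each from 0) in every library of the 3 groups, with the mean and SD of 3 libraries as bars; open circles are the 3 low-granule libraries. The open circles lie apart from the filled ones for Nr3c2, Crh, Crhr1, Crhr2 and Oxtr, for example 3.42 to 3.97 FPKM against 14.1 to 20.4 FPKM for Nr3c2.

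Crh was a low transcript, with 14 to 110 fragments per library. Its level was 1.08, 0.702 and 1.29 FPKM in CRS-WT, 2.71, 2.34 and 0.954 FPKM in the libraries labelled CRS-NKAα1+/- and 3.18, 1.16 and 1.39 FPKM in CRS-WT-DR5-12D. The 3 high values, 2.34 to 3.18 FPKM, were those of the low-granule libraries, and the other 6 lay at 0.702 to 1.39 FPKM. Crh lies at chr3:19693401-19695396 on the minus strand. Of markers of GABAergic interneurons, the hippocampal cells known to make CRH, Vip, Npy and Cck were also higher in all 3 low-granule libraries, with Vip at 8.79 to 11.6 FPKM against 3.10 to 5.15 FPKM. Gad1, the main enzyme of GABA synthesis, was lower in all 3, at 18.2 to 20.5 FPKM against 23.8 to 35.3 FPKM. Sst, Pvalb, Gad2 and Slc32a1 overlapped. Of the 15 listed interneuron markers 3 were higher and 3 lower, the summed level was 651 to 841 FPKM in the 3 and 532 to 775 FPKM in the other 6, and a part of interneurons in the Crh values was not tested.

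Crhr1, the receptor through which CRH acts on hippocampal neurons, was high in the same libraries as Crh and rested on more counts, 150 to 697 fragments per library. Its level was 4.88, 4.03 and 4.52 FPKM in CRS-WT, 10.2, 11.9 and 3.74 FPKM in the libraries labelled CRS-NKAα1+/- and 10.8, 3.81 and 5.26 FPKM in CRS-WT-DR5-12D. The low-granule libraries held 10.2 to 11.9 FPKM and the other 6 held 3.74 to 5.26 FPKM. The third library labelled CRS-NKAα1+/- had the lowest level of all 9. The summed isocortex and amygdala markers were also higher in the low-granule libraries, with 6 of 12 markers higher and 2 lower in all 3, and Lamp5, a marker of cortical neurons, was at 64.5 to 97.2 FPKM against 12.2 to 15.9 FPKM. The part of neighbouring cortical tissue in the Crhr1 values was not tested. Crhr1 lies at chr11:104132855-104175523 on the plus strand.

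Crhr2, the receptor that prefers urocortins, went the other way at a far lower level. It stood at 0.379, 0.388 and 0.451 FPKM in CRS-WT, 0.175, 0.155 and 0.403 FPKM in the libraries labelled CRS-NKAα1+/- and 0.186, 0.474 and 0.444 FPKM in CRS-WT-DR5-12D. The low-granule libraries, at 0.155 to 0.186 FPKM, lay below the other 6, at 0.379 to 0.474 FPKM. These values rest on 14 to 54 fragments per library, and the gene missed the mean of 0.5 FPKM required for the main test. Crhr2 lies at chr6:55090049-55133016 on the minus strand.

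Crhbp, a secreted protein that binds CRH and keeps it from its receptors, was the most abundant member, at a mean of 14.2 ± 2.66 FPKM (SD over 9 libraries). It stood at 11.9, 15.0 and 17.8 FPKM in CRS-WT, 9.58, 12.3 and 14.7 FPKM in the libraries labelled CRS-NKAα1+/- and 12.99, 16.7 and 16.5 FPKM in CRS-WT-DR5-12D. All 3 groups overlapped, and so did the low-granule libraries and the others. Crhbp lies at chr13:95431371-95444924 on the minus strand. The urocortins, the other ligands of these receptors, were near the limit of detection, with 11 fragments of Ucn, 22 of Ucn2 and 3 of Ucn3 over all 9 libraries.

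Oxtr was 1.55, 1.82 and 2.002 FPKM in CRS-WT, 0.880, 1.02 and 3.26 FPKM in the libraries labelled CRS-NKAα1+/- and 0.820, 1.66 and 2.79 FPKM in CRS-WT-DR5-12D. The low-granule libraries held the 3 lowest values, 0.820 to 1.02 FPKM, and the third library labelled CRS-NKAα1+/- held the highest. Group means were alike, at 1.79 ± 0.227, 1.72 ± 1.33 and 1.76 ± 0.989 FPKM (SD, n = 3), while the spread within the latter 2 groups was wide. Oxtr lies at chr6:112473683-112489943 on the minus strand. Cd38, an enzyme required in mice for oxytocin release, was lower in the low-granule libraries too, at 0.673 to 0.941 FPKM against 1.37 to 2.38 FPKM. Rgs14, a marker of CA2 pyramidal cells, was 10.1 to 11.9 FPKM in the 3 and 13.5 to 19.0 FPKM in the others, and the 8 CA2 markers together had 105.6 to 114.9 FPKM against 119.5 to 150.3 FPKM, with 3 of 8 lower and 1 higher in all 3. The summed CA3 markers went the other way, as given above, with 4 of 9 lower and 2 higher in all 3. The part of these cells in the Oxtr values was not tested.

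Avpr1a was barely detected. It stood at 0.398, 0.124 and 0.0863 FPKM in CRS-WT, which is 29, 5 and 5 fragments. The libraries labelled CRS-NKAα1+/- held 0, 0.0496 and 0.0858 FPKM, which is 0, 3 and 6 fragments, and the count of 0 allows a level of up to 0.0718 FPKM (3 fragments). CRS-WT-DR5-12D held 0.143, 0.138 and 0.138 FPKM, which is 10, 7 and 6 fragments. The exact Poisson interval (95%) ran from 0.0315 to 0.187 FPKM for 6 fragments in the third library labelled CRS-NKAα1+/- and from 0.0280 to 0.202 FPKM for 5 fragments in the third CRS-WT library, and such intervals cover counting error only. CRS-WT replicate 1 held 29 of the 71 fragments in all. Avpr1a lies at chr10:122448499-122453452 on the plus strand. Its ligand gene Avp had 22 fragments over all libraries, the oxytocin gene Oxt had 12, and the vasopressin receptor Avpr1b, known from CA2, had 20.

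By mean FPKM over the 9 libraries, which is scaled to gene length, the order was Crhbp, Nr3c2 (12.0 FPKM), Nr3c1 (9.46 FPKM), Crhr1 (6.57 FPKM), Oxtr (1.76 FPKM), Crh (1.65 FPKM), Crhr2 (0.339 FPKM) and Avpr1a (0.129 FPKM). Neighbours changed places between libraries. Crhbp exceeded Nr3c2 in 5 of 9 libraries, and Crhbp exceeded Nr3c1 in 8 of 9. Nr3c1 exceeded Crhr1 in 8 of 9, and Crh exceeded Oxtr in the 3 low-granule libraries. The step from Crhr1 to Oxtr held in 9 of 9 libraries and that from Crh to Crhr2 in 9 of 9.

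Across the 8 members, the low-granule libraries were all below the other 6 for 3 genes (Nr3c2, Crhr2, Oxtr), all above them for 2 (Crh, Crhr1) and overlapping for 3 (Nr3c1, Crhbp, Avpr1a). Of 17753 tested genes 13.5% lay above and 11.6% below in the same way. The libraries were grouped here by markers and not by a label, so no test was made. The members, too, were chosen with earlier results of these data known. The levels of the members and of the marker lists are shown together in the plot against granule and cortical markers.

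**Figure D2:**
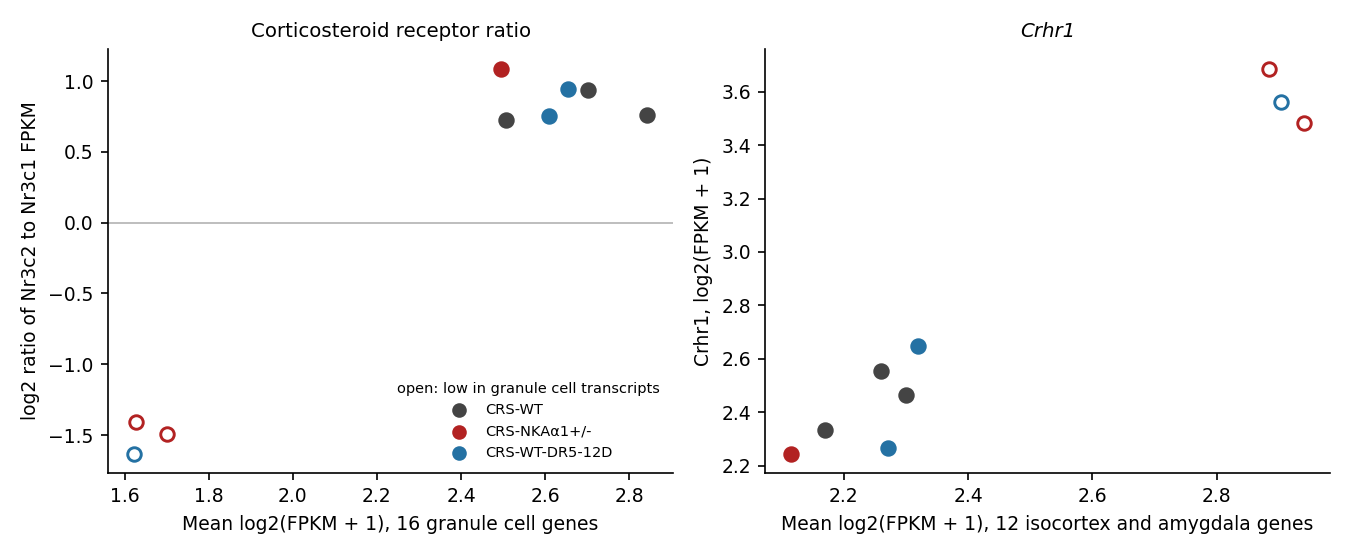
Left, log2 ratio of Nr3c2 to Nr3c1 FPKM (vertical axis) against the mean log2(FPKM + 1) of 16 granule cell genes; right, Crhr1 in log2(FPKM + 1) against the mean of 12 isocortex and amygdala genes. Each point is a library, coloured by group and open where low in granule transcripts, and the libraries fall into 2 clusters of 3 and 6 on both axes, with the ratio at −1.63 to −1.41 in the 3 and 0.72 to 1.09 in the 6.

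No member passed the test between labelled groups. Comparisons used limma on log2(FPKM + 1) with Benjamini-Hochberg adjustment over 17753 genes, and a call needed an adjusted p under 0.05. 6 of the 8 members were tested, since Crhr2 and Avpr1a fell below the filter. In the libraries labelled CRS-NKAα1+/- against CRS-WT, 0 of 6 were called, where 0.0225% of all genes tested were (4 genes). In CRS-WT-DR5-12D against CRS-WT, 0 of 6 were called against 0.0282% (5 genes). In CRS-WT-DR5-12D against the libraries labelled CRS-NKAα1+/-, 0 of 6 were called against 0.513% (91 genes), and the F-test over the 3 groups called 0 of 6 against 0.27% (48 genes). In each pair of groups 0 of 6 had an unadjusted p under 0.05 in limma, where 14.1%, 13% and 8.83% of all genes tested did, and limma voom on recovered fragments called 0. A p above the threshold does not show that the groups were alike. Rescaling to TPM (each library brought to the same sum) moved the median log2 fold change of all tested genes to −0.419, −0.327 and 0.102 in the 3 comparisons, from 0.0091, 0.0071 and 0.0065. In the first comparison limma then called Nr3c1 at −0.47 (adjusted p = 0.0331) and Crhbp at −0.74 (adjusted p = 0.0378), along with 7451 of all genes tested.

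The Nr3c2 difference was the largest of the members in size. Its log2 fold change in the libraries labelled CRS-NKAα1+/- against CRS-WT was −1.25 ± 0.61 (SE, limma adjusted p = 0.378), lower in 2 of 3 libraries than every CRS-WT library. Without the low-granule libraries, which leaves 1 library labelled CRS-NKAα1+/-, it was −0.045 ± 0.19. In CRS-WT-DR5-12D against CRS-WT it was −0.51 ± 0.61, and without CRS-WT-DR5-12D replicate 1 it was 0.11. Both differences were thus near 0 or of the other sign without those libraries.

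Crhr1 differed by 0.69 ± 0.41 on the log2 scale (SE, limma adjusted p = 0.435) in the libraries labelled CRS-NKAα1+/- against CRS-WT. The difference was −0.21 ± 0.17 without the low-granule libraries, when 1 library labelled CRS-NKAα1+/- is left. Crh had 0.53 ± 0.31 (limma adjusted p = 0.424) and −0.040 ± 0.20 without them. In CRS-WT-DR5-12D against CRS-WT the values over all 9 libraries were 0.37 ± 0.41 for Crhr1 and 0.47 ± 0.31 for Crh. Both genes thus had positive values in both comparisons, which share the CRS-WT libraries, and the sign in the first turned without the low-granule libraries. In the second, leaving out CRS-WT-DR5-12D replicate 1, its low-granule library, brought Crhr1 to 0.0057 and Crh to 0.18.

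Oxtr behaved otherwise. Its log2 fold change was −0.14 ± 0.34 (SE, limma adjusted p = 0.860) in the libraries labelled CRS-NKAα1+/- against CRS-WT and 0.61 ± 0.22 (limma adjusted p = 0.492) without the low-granule libraries, when a sole library is left in that group and is taken to vary like the others. The corresponding values of Nr3c1 were −0.0073 ± 0.16 and −0.29 ± 0.13, and those of Crhbp were −0.27 ± 0.18 and 0.0029 ± 0.20. In CRS-WT-DR5-12D against the libraries labelled CRS-NKAα1+/-, the log2 fold changes lay between −0.31 (Crhr1) and 0.73 (Nr3c2), with adjusted p of 0.697 to 0.971 (limma).

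**Figure D3:**
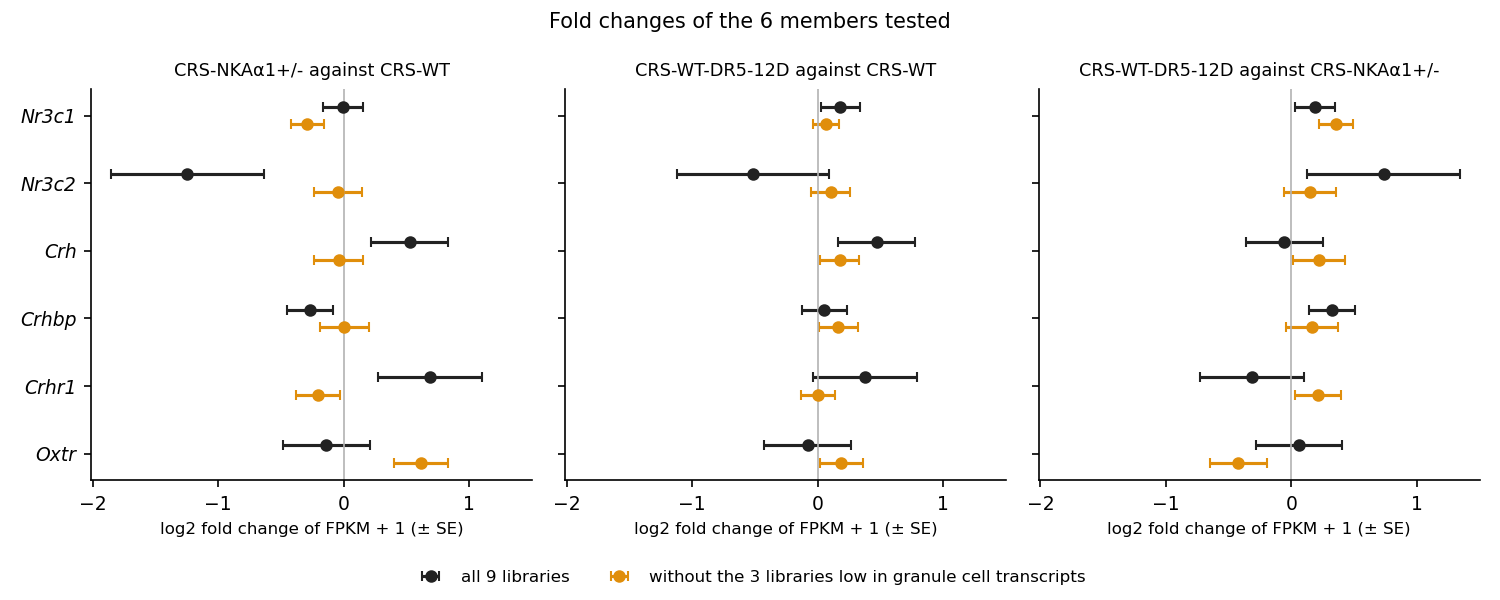
Log2 fold change of FPKM + 1 (horizontal axis) with its standard error for the 6 members tested, in each of the 3 comparisons, over all 9 libraries (black) and without the 3 low-granule libraries (orange). In the libraries labelled CRS-NKAα1+/- against CRS-WT, Nr3c2 moves from −1.25 to −0.045 and Crhr1 from 0.69 to −0.21. The orange values rest on 1 library labelled CRS-NKAα1+/-.

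Among all 8 members only Avpr1a had groups without overlap: its level in the libraries labelled CRS-NKAα1+/- was below that in CRS-WT, by 0.0858 against 0.0863 FPKM at the nearest libraries, and below that in CRS-WT-DR5-12D. That is 1 of 8 members, where 14.6% and 9.66% of all genes above 0 had such groups in these comparisons. In CRS-WT-DR5-12D against CRS-WT it was 0 of 8, against 15.4%. With no filter on low values, limma gave Avpr1a a log2 fold change of −0.19 ± 0.088 and an adjusted p of 0.517 in the libraries labelled CRS-NKAα1+/- against CRS-WT, and Crhr2 −0.18 ± 0.11 and 0.582.

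For each tested member the genes most alike across libraries were sought among 12236 genes, ranked by Pearson r over the 9 libraries. Over the 9, r was 0.96 to 0.998 for the genes named. Since the libraries fall into 2 clusters, the r printed below is that of the 6 libraries outside the low-granule set. Those 6 are among the 9 used for ranking, so their r is a description and no separate check. The genes named were closest over the 9 and need not be closest within the 6. Nr3c2 was closest to Raver2, an RNA-binding protein gene (r = 0.97), and Gabra5, the α5 subunit of the GABA-A receptor (r = 0.87). Crhr1 was closest to Cux2, a transcription factor of upper cortical layers (r = 0.96), and Fhod3, a formin (r = 0.94). Cux2 is also on the isocortex list. Crh was closest to Trim66 (r = 0.91) and Zfp574 (r = 0.88). Oxtr was closest to Rxfp3, the receptor of relaxin-3 (r = 0.96), and Tmem205 (r = 0.95), Nr3c1 to Casc4 (r = 0.97) and Mmp16, a membrane metalloprotease (r = 0.92), and Crhbp to Cog8, of a Golgi tethering complex (r = 0.95), and C8g (r = 0.89).

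**Figure D4:**
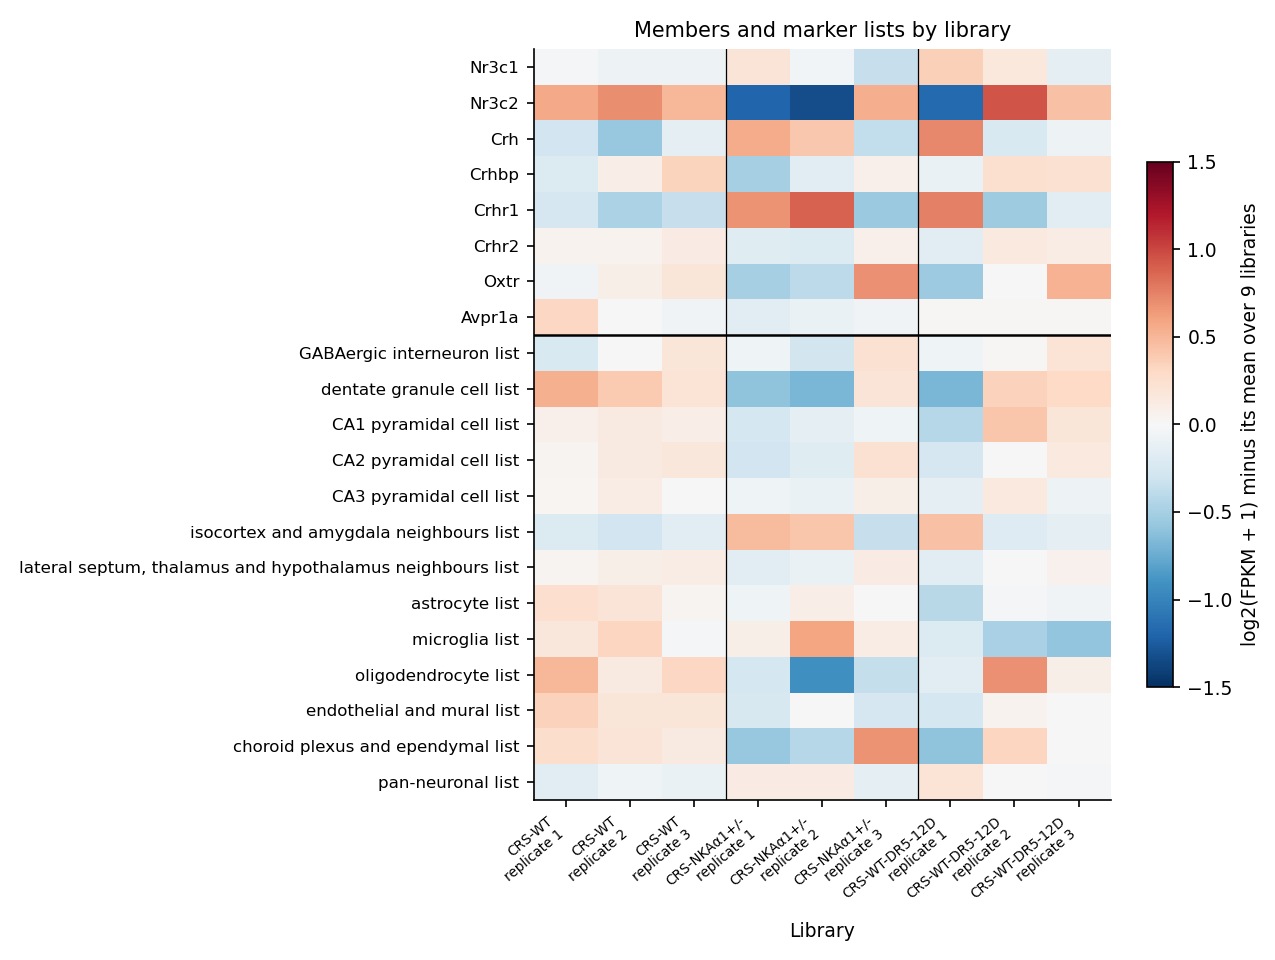
Level of the 8 members (above the line) and mean of 13 marker lists (below) in each library, as log2(FPKM + 1) minus its mean over the 9 libraries; red is above the mean and blue below. Nr3c2 is lowest in the same 3 libraries as the granule cell list, and Crh and Crhr1 are highest in the same 3 as the isocortex and amygdala list.

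The genes around the receptors were read from 8 lists, which were also chosen with earlier results of these data known. None of their genes passed limma's adjusted threshold on FPKM in any of the 3 comparisons. For each list, up to 2 genes were named for the smallest unadjusted p (limma) in any comparison. That choice favours groups without overlap. After rescaling to TPM, where 7451 of all genes passed in the first comparison, list genes passed there too, Abcb1a (adjusted p = 0.0284), Srd5a1 (0.0284) and Camk2b (0.03) among those named below. At an unadjusted p under 0.05, limma gave 8 of 18 glucocorticoid-induced genes in the libraries labelled CRS-NKAα1+/- against CRS-WT, where 14.1% of all genes tested had one. The list's median log2 fold change was 0.37 there, against 0.0091 over all genes, with 14 of 18 positive. After rescaling to TPM it was −0.098 against −0.419 over all genes, with 8 of 18 positive, where 1929 of 17753 tested genes were. In CRS-WT-DR5-12D against CRS-WT the count at that unadjusted p was 3 of 18, against 13% of all genes, with a median of 0.022. In CRS-WT-DR5-12D against the libraries labelled CRS-NKAα1+/-, which the first comparison also used, it was 7 of 18, against 8.83%, with a median of −0.32. Several of these genes are also induced by other stress and inflammatory signals, and the summed microglial markers were 249 to 324 FPKM in CRS-WT, 317 to 466 FPKM in the libraries labelled CRS-NKAα1+/- and 153 to 195 FPKM in CRS-WT-DR5-12D. Their part in these values was not tested.

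Nfkbia, which encodes an inhibitor of NF-κB, was 36.4, 57.5 and 75.0 FPKM in the libraries labelled CRS-NKAα1+/-, 19.1, 29.3 and 17.5 FPKM in CRS-WT and 15.5, 18.7 and 22.5 FPKM in CRS-WT-DR5-12D. The first group did not overlap CRS-WT or CRS-WT-DR5-12D, where 14.6% and 9.66% of all genes above 0 had such groups. Its log2 fold change in CRS-WT-DR5-12D against the libraries labelled CRS-NKAα1+/- was −1.48 ± 0.28 (SE, limma adjusted p = 0.0770), and with the granule list mean as a covariate it was −1.67 (limma adjusted p = 0.04). Plin4, a lipid droplet protein gene, was 3.80, 1.64 and 2.14 FPKM, 0.557, 1.15 and 0.926 FPKM, and 0.251, 0.383 and 0.732 FPKM in the same order of groups, with a difference of −1.24 ± 0.23 on the log2 scale (limma adjusted p = 0.0769). For Plin4 too the libraries labelled CRS-NKAα1+/- did not overlap the other groups, and in neither gene did the low-granule libraries stand apart.

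Of the chaperones and cofactors that hold the corticosteroid receptors ready for hormone, 2 of 20 had an unadjusted p under 0.05 in limma in each comparison with CRS-WT and 1 of 20 in the third. Of all genes tested 14.1%, 13% and 8.83% had one. The list medians were −0.038, −0.035 and −0.032. The co-chaperone gene Dnajb1 was 37.8, 29.9 and 23.8 FPKM in the libraries labelled CRS-NKAα1+/-, 17.5, 17.5 and 18.3 FPKM in CRS-WT and 20.8, 13.2 and 12.8 FPKM in CRS-WT-DR5-12D. All 3 libraries of the first group lay above the rest, and the log2 fold change of the third comparison was −0.94 ± 0.20 (SE, limma adjusted p = 0.114). Fkbp4, whose product promotes nuclear transfer of the receptor, had −0.35 ± 0.14 in CRS-WT-DR5-12D against CRS-WT (limma adjusted p = 0.345).

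Of genes of corticosteroid metabolism, 6 of 7 were tested. Abcb1a, an efflux pump of the blood-brain barrier that carries corticosteroids, was 3.83, 3.62 and 3.21 FPKM in CRS-WT, 1.70, 2.57 and 2.07 FPKM in the libraries labelled CRS-NKAα1+/- and 2.11, 2.67 and 2.48 FPKM in CRS-WT-DR5-12D. CRS-WT lay above both other groups, where 14.6% and 15.4% of all genes above 0 had groups without overlap in these comparisons. The log2 fold change of Abcb1a in the libraries labelled CRS-NKAα1+/- against CRS-WT was −0.55 ± 0.12 (SE, limma adjusted p = 0.182). Summed markers of endothelial and mural cells were also highest in CRS-WT, at 80.2 to 92.1 FPKM against 51.2 to 67.2 and 51.5 to 72.4 FPKM, and their part was not tested. Srd5a1, a steroid 5α-reductase, had −0.24 ± 0.091 in the same comparison (limma adjusted p = 0.328). Hsd11b1, which regenerates active glucocorticoid inside cells, was 3.85 to 4.83 FPKM in the low-granule libraries and 5.57 to 8.60 FPKM in the other 6.

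Of 22 genes of the Gs and cAMP route that CRH receptors use, 19 had a positive fold change in each comparison with CRS-WT. Both of these comparisons use the same CRS-WT libraries. The list medians were 0.15 and 0.16, against 0.0091 and 0.0071 over all genes. After rescaling to TPM 3 and 1 of 22 were positive, where 1929 and 1991 of 17753 tested genes were. The list medians were then −0.33 and −0.20, where those of all genes were −0.419 and −0.327. In the third comparison 9 of 22 were positive before rescaling. At an unadjusted p under 0.05, limma gave 2, 4 and 0 of the 22 in the 3 comparisons, in the order used above, against 14.1%, 13% and 8.83% of all genes tested. Pde4b, a cAMP phosphodiesterase, had a log2 fold change of 0.58 ± 0.15 in the libraries labelled CRS-NKAα1+/- against CRS-WT (limma adjusted p = 0.231), and Gnas, the Gs subunit, 0.26 ± 0.071 in CRS-WT-DR5-12D against CRS-WT (limma adjusted p = 0.202). Of 14 genes of the Gq route used by the oxytocin and vasopressin receptors, 2, 1 and 0 had an unadjusted p under 0.05 in limma, against the same shares. Camk2b, a calcium-dependent kinase, had −0.52 ± 0.20 in the first comparison (limma adjusted p = 0.328) and Itpr2, an intracellular calcium channel, −0.27 ± 0.090 in the second (limma adjusted p = 0.266). Camk2b was 77.7 to 82.1 FPKM in the low-granule libraries and 114.7 to 136.3 FPKM in the other 6, and Pde4b was 8.53 to 9.65 FPKM against 5.10 to 7.996 FPKM.

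Of the other oxytocin and vasopressin genes 3 of 6 were tested. Lnpep, an aminopeptidase that cleaves both peptides, had 0.32 ± 0.12 in CRS-WT-DR5-12D against CRS-WT (limma adjusted p = 0.313), and Avpr2, the vasopressin receptor best known from kidney, −0.25 ± 0.11 (limma adjusted p = 0.402). Among 7 tested genes of other nuclear receptors, Pgr, the progesterone receptor, had 0.51 ± 0.18 (limma adjusted p = 0.319) in the libraries labelled CRS-NKAα1+/- against CRS-WT. Pgr was 3.38 to 4.53 FPKM in the low-granule libraries and 1.73 to 2.68 FPKM in the other 6.

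**Figure D5:**
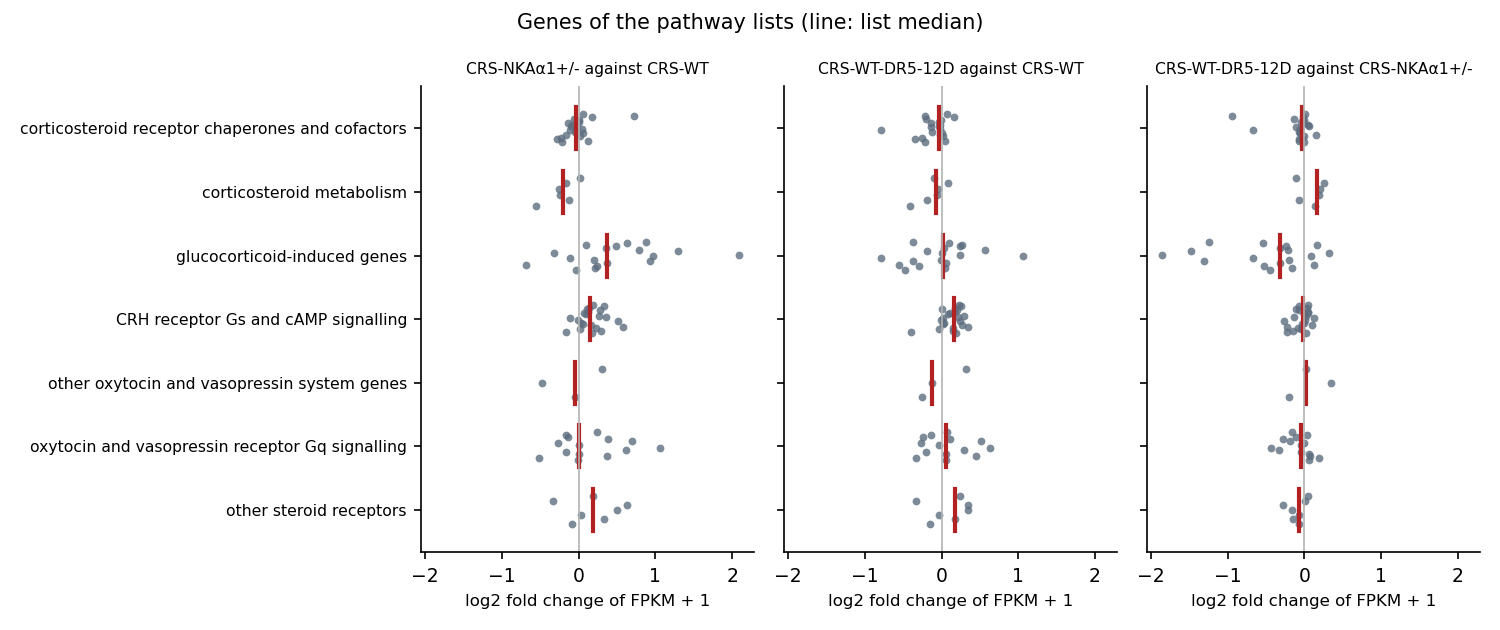
Log2 fold change of FPKM + 1 (horizontal axis) of every tested gene on 7 of the lists, 1 point a gene, in each comparison; the red line is the list median, and the urocortin list has no tested gene. The glucocorticoid-induced genes spread most widely, with medians of 0.37, 0.022 and −0.32.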

How the data were processed

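The authors deposited 1 table of FPKM for 53465 genes in 9 libraries. Per the submitters' processing notes, cutadapt, HISAT2 and RSEM 1.2.30 were used with GRCm38; the sources used here give neither annotation release nor strandedness. Within 0.02 of a whole fragment, the values of 17752 of 17753 tested genes were whole fragments divided by exon length (GENCODE vM21) and library depth, 1537 of them at another length; the depths and fragments given were so recovered. Testing was limited to a mean FPKM of 0.5 or more and was done with limma 3.58.1 (R 4.3.3) on log2(FPKM + 1), all 9 libraries in 1 fit with a trend, two-sided, adjusted by Benjamini-Hochberg over all genes. The added 1 shrinks fold changes of low genes. Fold changes are given ± SE. Ratios were tested by exact permutation (scipy 1.17.1). The labels give no batch.

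The members and lists were chosen with earlier results of these data known, as was the naming of 3 libraries low in granule transcripts. The rule names all members, the 2 genes of smallest p per pathway list and the 2 most alike genes per tested member. Interneuron, tissue and list genes named beside them as markers, and Hsd11b1, Cd38 and the peptide genes, were picked once values were known. Of the 13 marker lists the plotted means show all. The text names those whose summed level or mean separates the libraries, and others beside a result of the same cells. Results of some genes are not reported here. The fit was tested on simulated data. Alternatives were other pseudocounts, filters, scalings, voom on recovered fragments, fewer samples, a replicate block and a granule covariate. Crhr2 and Avpr1a, under the filter, were tested with no filter only.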

Additional observations from a re-analysis of the deposited data

How the results depend on the processing

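Over 11 alternatives that leave out no single library, 166 of 192 member fold changes kept their direction and their side of the threshold, 24 changed sign and 2 passed the threshold; of 162 with 1 library left out, 15 changed sign and 0 passed. Rescaling to TPM called 2 members in the libraries labelled CRS-NKAα1+/- against CRS-WT, Nr3c1 and Crhbp; it turned Nr3c1 to −0.17, Crhbp to −0.31 and Gnas to −0.11 with CRS-WT-DR5-12D against CRS-WT, while Crh turned to 0.021 with CRS-WT-DR5-12D against CRS-NKAα1+/-. Voom turned Crh to 0.092 and Oxtr to −0.054 in that last comparison. Without the low-granule libraries, 1 library labelled CRS-NKAα1+/- is left. Crh (−0.040), Crhr1 (−0.21), Crhbp (0.0029) and Oxtr (0.61) then turned in the first comparison. Nr3c2 (0.11) and Oxtr (0.19) turned in the second and Crh (0.22), Crhr1 (0.21) and Oxtr (−0.42) in the third. The 3 log2 ratios of Nr3c2 to Nr3c1 turned too (0.28, 0.039 and −0.24). With the granule list mean as a covariate, Nr3c2 (0.16), Crh (−0.15), Crhr1 (−0.23) and Oxtr (0.55) turned in the first, Nr3c2 (0.23), Crhr1 (−0.11) and Oxtr (0.28) in the second and Crh (0.27), Crhr1 (0.13) and Oxtr (−0.27) in the third. The cause was not tested.

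Leaving out 1 library at a time gave 0 members past the threshold throughout. The fold change then ran from −0.14 to 0.13 for Nr3c1 and from −0.51 to 0.076 for Oxtr in the first comparison, from −0.95 to 0.11 for Nr3c2, −0.086 to 0.18 for Crhbp and −0.34 to 0.19 for Oxtr in the second, and from −0.35 to 0.13 for Crh and −0.20 to 0.44 for Oxtr in the third. The ratio difference ran from −2.26 to −0.97, from −1.25 to 0.039 (the latter without CRS-WT-DR5-12D replicate 1) and from 0.16 to 1.47.

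All-gene counts of 4, 5 and 91 became 0, 0 and 30 with no filter, 7451 and 975 in the first 2 after TPM, 1 and 1 in the first 2 by voom, and 41 in the second and 5 in the third with only the compared groups in the fit. Without the low-granule libraries the first was 41, and with the granule covariate the first was 1 and the second 12. With 1 library left out they ran from 0 to 25, 0 to 21 and 1 to 194. The F-test count of 48 became 100 with a pseudocount of 0.1 or 0.01, 6 with no filter, 1751 after TPM and 86 without the low-granule libraries, and ran from 1 to 151 with 1 library left out. Deviations of same-numbered libraries from their group means had r from −0.0797 to 0.0395 in the first 2 comparisons. In the third they had 0.45, −0.35 and 0.497, and libraries of unlike number had r from −0.716 to 0.505. There r was positive where both libraries or neither were low-granule and negative otherwise, so this check cannot decide whether the numbers pair libraries. With the replicate block 0 members passed, the all-gene counts were 0, 0 and 40, and the F-test count was 7. The ratio differences stayed at −1.41, −0.79 and 0.62. In the third comparison Dnajb1 passed without the low-granule libraries, which leaves 1 library labelled CRS-NKAα1+/- (−0.83, limma adjusted p = 0.0206), and with the granule covariate (−0.73, limma adjusted p = 0.0318), as did Nfkbia with that covariate (−1.67, limma adjusted p = 0.04). After TPM 7451 of 17753 tested genes passed in the first comparison. Of the lists 15 of 20 chaperone, 4 of 6 metabolism, 3 of 18 glucocorticoid-induced and 7 of 22 Gs genes passed there. So did 6 of 14 Gq, 1 of 3 other peptide system and 3 of 7 other receptor genes. In the second comparison 975 of 17753 passed, with 1 gene of each of the chaperone, metabolism and glucocorticoid-induced lists. Depth limits Avpr1a and Crhr2 most.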
